A study of Homo sapiens with 4 samples.

Results

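The genes described here encode the minichromosome maintenance (MCM) helicase and its close relatives. They were taken by symbol from the deposited count table, namely MCM2, MCM3, MCM4, MCM5, MCM6, MCM7, MCM8, MCM10 and MCMBP, and all 9 were found among its 19653 Ensembl gene identifiers, each on 1 row. All 9 were also among the 13140 genes with enough counts to be tested. RNA was sequenced from hTERT-RPE1, a human retinal pigment epithelial cell line immortalised with telomerase. Cells that received a lentiviral Cas9 vector carrying a 53BP1 guide RNA (genotype 53BP1 knockout, labelled sg53BP1, 2 libraries) were set against cells given the Cas9 vector with no guide (genotype WT, labelled sgControl, 2 libraries). Neither group received a further treatment, and both carry Cas9 and telomerase. The sources used here do not say if the lines were clones or pools, nor if the 2 libraries of each label were separate cultures. Every p-value below therefore reflects only how far these libraries lay apart, which may be technical variation.

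MCM2 to MCM7 form the hexameric ring at the heart of the replicative helicase. The origin recognition complex, CDC6 and CDT1 load the ring onto DNA before S phase, and the kinases CDC7 and CDK2 then trigger the joining of CDC45 and the GINS complex, which turns the ring into an active helicase. Cycling cells transcribe the MCM genes most strongly around the start of S phase, under E2F transcription factors and their RB-family repressors, and MCM protein is widely used as a mark of cells that are not quiescent. MCM10 helps to activate the loaded helicase. MCM8 belongs to a separate helicase that acts with MCM9 in homologous recombination, and MCMBP binds MCM subunits and helps newly made rings to assemble.

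The targeted gene did not check the labels as a loss of RNA. TP53BP1 had 1743 and 1516 counts in the libraries labelled sg53BP1, against 431 and 594 counts in those labelled sgControl, and was 2.94-fold higher where the knockout is labelled (edgeR adjusted p = 0.00224). An edited gene can still be transcribed, but every direction below is that of the labels and would turn if they were exchanged. Library totals lay between 16654411 and 18164086 counts. Among markers of retinal pigment epithelium, MITF stood at 31.4 to 37.6 CPM in the libraries labelled sg53BP1 and 29.1 to 30.3 CPM in those labelled sgControl, and OTX2 at 12.2 and 11.4 CPM in the libraries labelled sg53BP1 and 6.86 and 9.27 CPM in those labelled sgControl (log2 fold change 0.54, adjusted p = 0.245), whereas BEST1, RLBP1, TYR, LRAT, PMEL and SERPINF1 did not exceed 3.11 CPM in any library. Levels in CPM are counts scaled to library size, with TMM factors, and are not per gene length. RPE65 and TTR were looked for by symbol and were not found among the gene identifiers of the count table. The epithelial keratin gene KRT8 stood at 484 and 517 CPM in the libraries labelled sg53BP1, against 547 and 849 CPM in those labelled sgControl, and KRT18 stood at 142 and 156 CPM in the libraries labelled sg53BP1, against 110 and 170.1 CPM in those labelled sgControl. Neither was called, and KRT19 had at most 5 counts in a library. Endothelial and blood markers summed to 2.43 and 1.44 CPM in the libraries labelled sg53BP1 and to 3.31 and 1.90 CPM in those labelled sgControl. Of 5 tested fibroblast markers, THY1 and PDGFRA were called lower. FAP and PDGFRB did not pass, with log2 fold changes of −0.82 and −0.44, and COL1A1 had 0.16. The list of 7 summed to 203 and 213 CPM in the libraries labelled sg53BP1, against 379 and 336 CPM in those labelled sgControl, with DCN and LUM at or under 1.32 CPM throughout. The part of this difference in the MCM results was not tested.

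The sgControl libraries also differed from each other in interferon-stimulated genes, an observation made after the values were seen. IFI6 stood at 673 and 721 CPM in the libraries labelled sg53BP1, against 54.4 CPM in sgControl replicate 1 and 1840.0 CPM in sgControl replicate 2. OAS1 stood at 232 and 226 CPM in the libraries labelled sg53BP1, against 21.6 CPM in sgControl replicate 1 and 595 CPM in sgControl replicate 2. The libraries labelled sg53BP1 thus lay between the sgControl libraries for both genes. The part of this in the MCM results was not tested, and the MCM results without either library are given after the values of the single genes.

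The starts of several MCM genes carry sequences of the kind that E2F factors bind. In RefSeq windows of 300 bases (250 before to 50 after the gene's start, assembly GRCh38.p14), both strands were searched for TTTGGCGC, TTTCCCGC, TTTGCCGC and TTTCGCGC. Windows were held for 7 of the 9 genes, and 6 of these had a match. Over all 35116 windows 3.31% had one, and of 10544 tested genes with a window 6.63% had one in at least 1 of their windows. MCM7 has more than 1 annotated start, and so has MCMBP, which gives each of them more than 1 window. MCM10 had no match, which says only that these letters are not in its window. MCM6 had a pair of identical 12-base sites, 152 and 90 bases before its start, and MCM2 had a 12-base site that starts at base 3 of the gene. In these sites matches on both strands overlap, 4 bases apart, an arrangement seen in 9 of all windows (0.0256%). MCM3 had matches 174 and 4 bases before its start, and MCM7 had matches 187 and 9 bases before 1 of its starts. MCMBP had a match 9 bases before 1 of its starts and MCM8 had a match at base 27 of the gene. The stretches around the sites of MCM6, MCM2, MCM3 and MCM7 are given 5′ to 3′ on the gene's strand, with the matched bases in capitals. Having a match did not separate called from uncalled genes, since MCM8 and MCMBP, which were not called, had matches too. No window was held for MCM4 and MCM5, which were called. A match is a description of letters and was not tested for binding.
MCM6, chr2:135876502-135876615, minus strand: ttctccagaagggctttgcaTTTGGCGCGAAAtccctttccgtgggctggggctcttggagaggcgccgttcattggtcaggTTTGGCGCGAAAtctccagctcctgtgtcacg
MCM2, chr3:127598404-127598433, plus strand: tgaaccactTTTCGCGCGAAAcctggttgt
MCM3 upstream match, chr6:52284898-52284927, minus strand: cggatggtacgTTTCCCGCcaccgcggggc
MCM3 match at the start, chr6:52284728-52284757, minus strand: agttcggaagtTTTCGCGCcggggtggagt
MCM7 upstream match, chr7:100101566-100101595, minus strand: cagctcggaccGCGGGAAAcccggcgcctg
MCM7 match near the start, chr7:100101388-100101417, minus strand: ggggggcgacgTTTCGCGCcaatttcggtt

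All 6 genes of the helicase ring were higher in the libraries labelled sg53BP1. Together they took 1394 and 1368 CPM in the libraries labelled sg53BP1, against 909 and 793 CPM in those labelled sgControl. In edgeR's quasi-likelihood test, with Benjamini-Hochberg adjustment over 13140 genes, each of the 6 was below 0.05, with increases of 1.48-fold to 2.08-fold. MCM10 missed the threshold narrowly, and MCM8 and MCMBP did not pass. Thus 6 of the 9 genes (66.7%) were called higher and none lower, where 2.07% of all tested genes were called higher and 5.08% were called in either direction. Among the 6419 tested genes with a mean of at least 30 CPM, a level that every MCM gene here reaches and that was set with those values in view, 1.76% were called higher. The genes were chosen with earlier results of these data known. In bulk RNA, more cells in a phase of the cycle and more RNA per cell cannot be told apart.

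**Figure D1:**
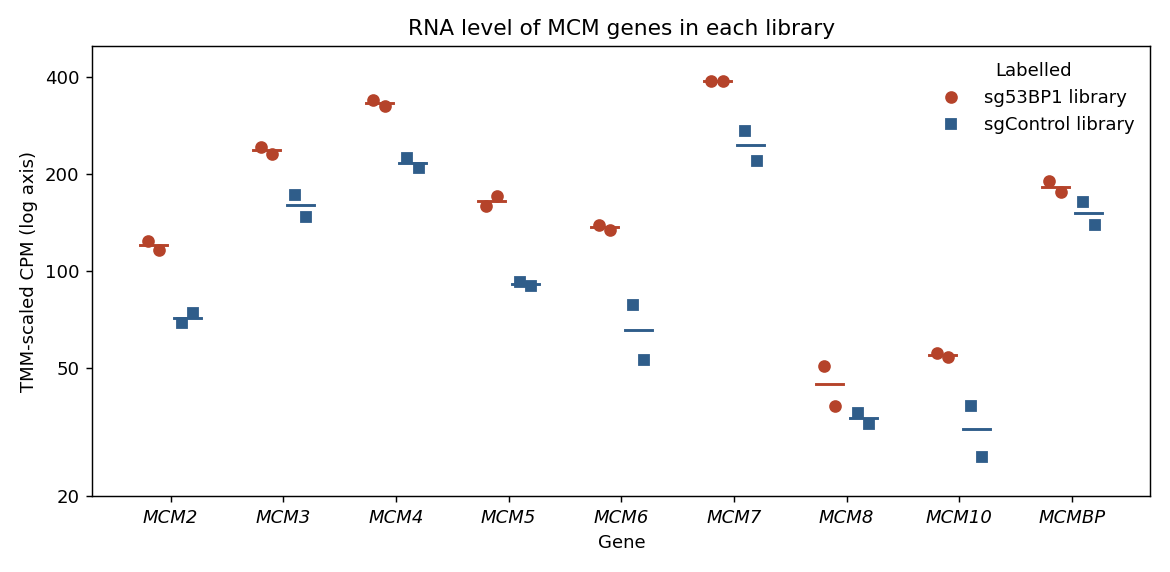
RNA level of each MCM gene in TMM-scaled CPM (log axis), with 1 point per library and a line at the mean of the 2 libraries of a group. Both libraries labelled sg53BP1 (circles) lie above both libraries labelled sgControl (squares) for all 9 genes, with the narrowest gaps in MCM8 and MCMBP.

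MCM6 (ENSG00000076003), the subunit that contacts CDT1 during loading, changed most. It stood at 139 and 134 CPM in the libraries labelled sg53BP1, against 78.3 and 53.2 CPM in those labelled sgControl. The sg53BP1 pair was close together while the sgControl pair lay 0.56 log2 units apart, and the groups did not overlap. MCM6 rose 2.08-fold, a log2 fold change of 1.06 (standard error 0.19, adjusted p = 0.0207), a value that 2.79% of tested genes reached or exceeded. The higher of the sgControl libraries was still well below both libraries labelled sg53BP1.

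MCM5 and MCM2 lie on either side of the gate through which DNA enters the ring. MCM5 (ENSG00000100297) stood at 159 and 171 CPM in the libraries labelled sg53BP1, against 92.2 and 90.0 CPM in those labelled sgControl. It rose 1.81-fold (log2 fold change 0.86, standard error 0.12, adjusted p = 0.00554), the smallest adjusted p among the 9 genes. Its sgControl libraries were the closest pair of any of these genes, 0.035 log2 units apart. MCM2 (ENSG00000073111), which also carries histones past the fork, stood at 124 and 117 CPM in the libraries labelled sg53BP1, against 69.1 and 74.0 CPM in those labelled sgControl. It rose 1.68-fold (log2 fold change 0.75, standard error 0.12, adjusted p = 0.0106). MCM2 was the only gene of the 9 for which sgControl replicate 2 was the higher of its pair. Counts of MCM2 can include reads of the antisense gene AC023593.1, which shares 1113 exon bases with it in GENCODE release 29 and was not counted separately. TPRA1 shares 45 exon bases with MCM2 and was counted separately, with 885 to 1081 counts. The sources used here do not say whether counting used strand, nor how reads shared between genes were treated.

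MCM4, MCM6 and MCM7 form a subcomplex that unwinds DNA on its own in vitro. MCM7 (ENSG00000166508), the subunit whose ubiquitination takes the helicase off DNA at the end of replication, was the most abundant of the 9 in CPM, with 391 and 389 CPM in the libraries labelled sg53BP1, against 272 and 220.2 CPM in those labelled sgControl. It rose 1.58-fold (log2 fold change 0.66, standard error 0.14, adjusted p = 0.0304). The libraries labelled sg53BP1 were nearly equal, and the sgControl pair differed by 0.31 log2 units. MCM7 shares 392 exon bases with AP4M1 on the opposite strand, a gene with 103 to 161 counts in the 4 libraries, far fewer than the 3703 to 7066 counts of MCM7.

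MCM4 (ENSG00000104738), whose tail is a main target of the kinase CDC7, stood at 339.6 and 325 CPM in the libraries labelled sg53BP1, against 225 and 208 CPM in those labelled sgControl. It rose 1.53-fold (log2 fold change 0.62, standard error 0.12, adjusted p = 0.0236). MCM3 (ENSG00000112118), through which, in yeast, a new ring is first drawn to ORC and CDC6, stood at 242 and 232 CPM in the libraries labelled sg53BP1, against 173 and 147 CPM in those labelled sgControl. It rose 1.48-fold (log2 fold change 0.57, standard error 0.13, adjusted p = 0.0444), the smallest rise of the 6. The groups did not overlap for MCM4 or MCM3, although the gap between the lower sg53BP1 library and the higher sgControl library was narrower in MCM3.

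MCM10 (ENSG00000065328) differed by about as much as MCM2 but did not pass. It stood at 55.5 and 54.1 CPM in the libraries labelled sg53BP1, against 38.2 and 26.4 CPM in those labelled sgControl. Its log2 fold change was 0.76 (standard error 0.18), or 1.70-fold with a 95% interval of 1.27-fold to 2.27-fold, and an adjusted p of 0.0541. The sgControl libraries lay 0.53 log2 units apart, nearly as far as those of MCM6. MCM10 passed under other settings, among them the DESeq2 Wald test (adjusted p = 0.0126) and limma-voom (adjusted p = 0.0429), and its adjusted p ranged from 5.72e-10 to 0.572 over 11 alternatives.

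MCM8 (ENSG00000125885) and MCMBP (ENSG00000197771), which are not part of the ring, had the smallest differences. MCM8 stood at 50.7 and 38.2 CPM in the libraries labelled sg53BP1, against 36.3 and 33.5 CPM in those labelled sgControl. Here it was the sg53BP1 pair that lay apart, by 0.41 log2 units, with its lower library just above the sgControl libraries. The log2 fold change was 0.35 with a 95% interval of −0.02 to 0.72 (adjusted p = 0.294). MCMBP stood at 189.9 and 175 CPM in the libraries labelled sg53BP1, against 164 and 139 CPM in those labelled sgControl. Its log2 fold change was 0.27 with a 95% interval of −0.03 to 0.57 (adjusted p = 0.315). Both intervals span no change and also reach the size of the rise in MCM3, so a p over the threshold does not show that these genes stayed the same.

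**Figure D2:**
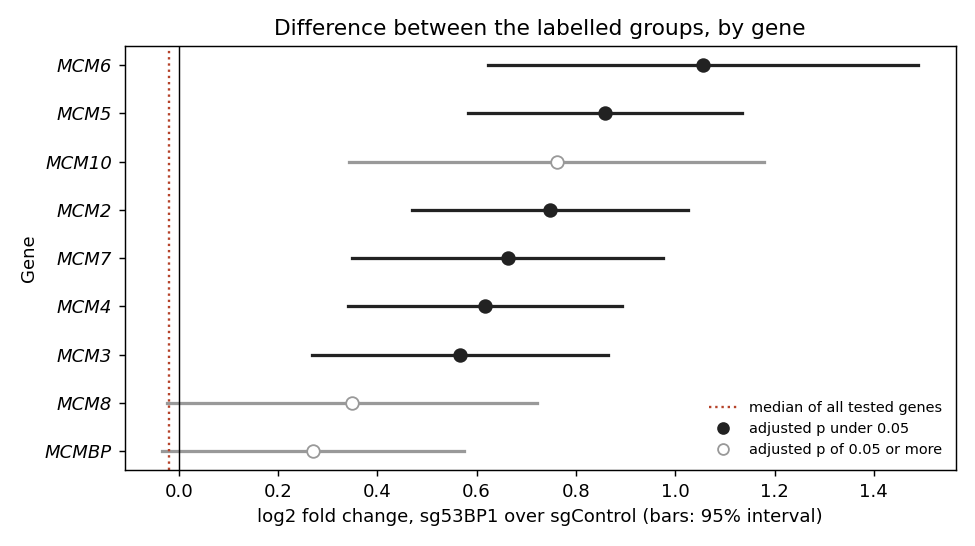
Log2 fold change of each MCM gene, sg53BP1 over sgControl, with its 95% interval (edgeR quasi-likelihood fit), ordered from largest at the top. Filled points passed an adjusted p of 0.05 and the dotted line is the median of all tested genes; MCM6 stands highest at 1.06, and only the intervals of MCM8 and MCMBP reach 0.

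The levels of all 9 genes were without overlap between the groups, the libraries labelled sg53BP1 being higher, as was the case for 24.8% of all tested genes. The median log2 fold change was 0.71 for MCM2 to MCM7 and 0.66 for all 9, beside −0.02 for all tested genes, of which 47.4% had a positive value. In the authors' deposited table, whose log2 fold changes are control over knockout and therefore negative here, 7 of the 9 passed an adjusted p of 0.05. The share of all genes that passed in it is not given here. The DESeq2 Wald test run here called 926 of 19653 genes, and 7 of the 9. In the authors' deposited table MCM6 had −1.07 (adjusted p = 9.56e-06), MCM5 had −0.88 (adjusted p = 9.72e-07) and MCM10 had −0.78 (adjusted p = 0.0116).

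Calls over the whole table, not only those of the MCM genes, depended on which libraries were in the fit. With either library labelled sg53BP1 left out, few genes of the whole table passed and the MCM genes lost their calls. That loss was therefore not read as a result about the MCM genes. The log2 fold changes of the 9 genes ran from 0.13 to 1.03 without sg53BP1 replicate 1. Without sg53BP1 replicate 2 they ran from 0.33 to 1.08. With sgControl replicate 1 or sgControl replicate 2 left out, many more genes of the whole table passed than in the full fit. Passing in those fits was therefore not read as a result about the MCM genes. The log2 fold changes of the 9 genes ran from 0.43 to 1.39 without sgControl replicate 1. Without sgControl replicate 2 they ran from 0.16 to 0.85. The sizes moved less than the calls. MCM6 had a log2 fold change of 1.39 when sgControl replicate 1 was left out and of 0.81 when sgControl replicate 2 was. Without sgControl replicate 2, MCM6 no longer changed most, since MCM5 had 0.85. MCM10 had 1.08 and 0.53 in the same fits, and MCM8 had 0.13 when sg53BP1 replicate 1 was left out. For 8 of the 9 genes sgControl replicate 2 was the lower of its pair, MCM2 being the exception. The same library was the higher of its pair for IFI6 and OAS1, and a link of these genes to the MCM levels was not tested. For 8 of the 9 sg53BP1 replicate 2 was the lower of its pair, MCM5 being the exception. How many of all tested genes were lower in replicate 2 of either label is not given here.

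**Figure D3:**
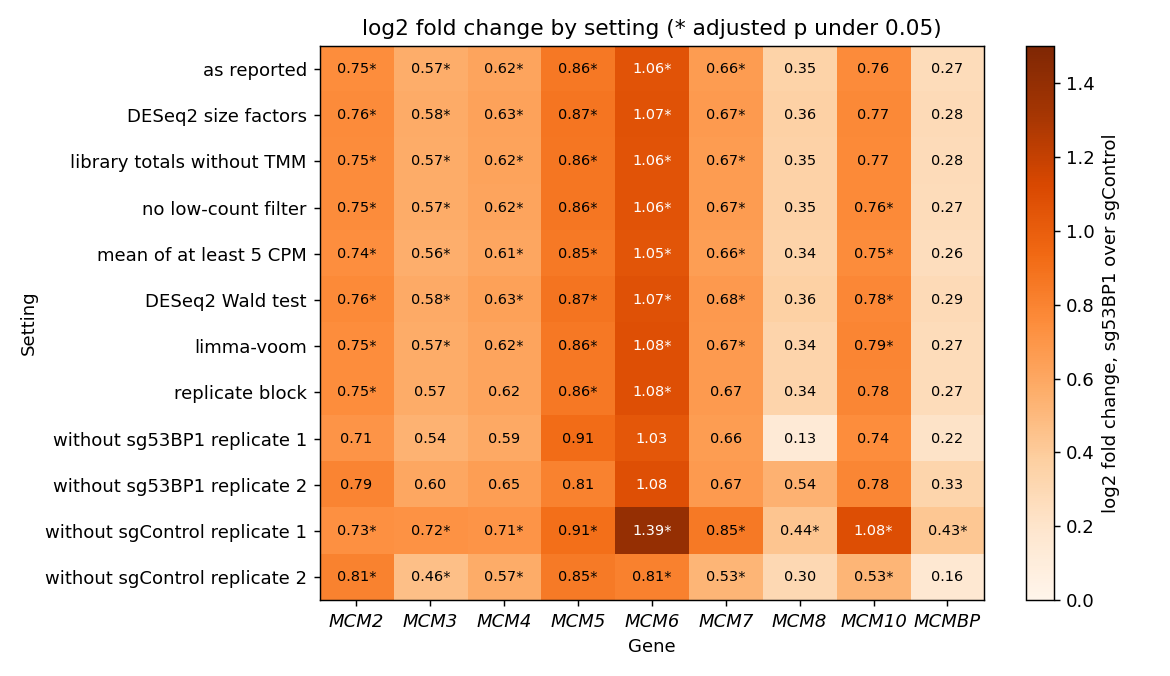
Log2 fold change of each MCM gene (columns), sg53BP1 over sgControl, as reported and under each of 11 alternatives (rows), coloured from 0 to 1.5; a star marks an adjusted p under 0.05. All values are positive, which follows from groups that did not overlap for any of these genes. With every library in the fit, the stars of MCM3, MCM4 and MCM7 are missing only in the row with the replicate number as a block.

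Levels of different genes can be set beside each other only per length, here CPM per kb of the union of annotated exons in GENCODE release 29. On this scale MCM7 was the highest, with 88.8 ± 0.312 CPM per kb in the libraries labelled sg53BP1 and 56.1 ± 8.36 CPM per kb in those labelled sgControl (SD, n = 2 each). MCM3 followed with 64.9 ± 2.06 and then MCM4 with 47.7 ± 1.46 CPM per kb in the libraries labelled sg53BP1. MCM6 and MCMBP came next at 33.2 ± 0.828 and 30.4 ± 1.70 CPM per kb in the libraries labelled sg53BP1, and MCM2 and MCM5 stood close together at 24.5 ± 1.05 and 22.5 ± 1.21 CPM per kb. MCM10 and MCM8 were the lowest in the libraries labelled sg53BP1, at 10.0 ± 0.184 and 5.78 ± 1.15 CPM per kb. In the libraries labelled sgControl MCM6 stood close to MCM2 and MCM5, at 16.0 ± 4.32 CPM per kb beside 14.6 ± 0.716 and 12.4 ± 0.214 CPM per kb. Per kb of the longest coding sequence, a length chosen after the data were seen, MCM7 again came first, but MCM4 stood above MCM3 and MCM5 above MCM6 and MCM2 in both groups. Among the ring subunits, MCM7 stood first under both lengths, with MCM3 and MCM4 next in either order. MCM6 also stood above MCM2 under both, although in the libraries labelled sgControl these lay within their spread.

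Within the summed level per kb of the ring subunits, the shares of MCM6, MCM3 and MCM4 lay apart between the groups. MCM6 made up 11.9% and 11.7% of that sum in the libraries labelled sg53BP1, against 10.2% and 8.03% in those labelled sgControl. MCM3 made up 23.3% and 22.8% in the libraries labelled sg53BP1, against 25.3% and 25.1% in those labelled sgControl. These groups did not overlap. Those of MCM4 lay apart only just, at 17.1% and 16.7% in the libraries labelled sg53BP1 and 17.2% and 18.6% in those labelled sgControl. Shares of the same sum are tied to each other, and how often shares of other genes lie apart was not examined. The shares of MCM2, MCM5 and MCM7 overlapped between the groups. Per kb of coding sequence, MCM6, MCM3 and MCM4 lay apart in the same directions. MCM5 no longer overlapped, but only just, with 12.54% and 13.75% in the libraries labelled sg53BP1 and 11.14% and 12.52% in those labelled sgControl. The ratio of MCM6 to MCM3 in CPM, which needs no length to be followed across libraries, was 0.574 and 0.579 in the libraries labelled sg53BP1, against 0.453 and 0.361 in those labelled sgControl. The ratio of MCM6 to MCM2 overlapped between the groups, with 1.12 and 1.15 in the libraries labelled sg53BP1, against 1.13 and 0.718 in those labelled sgControl. A share was not tested, since an exact permutation of 2 libraries against 2 cannot reach a p of 0.05, and the 95% intervals of the 6 log2 fold changes overlap.

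**Figure D4:**
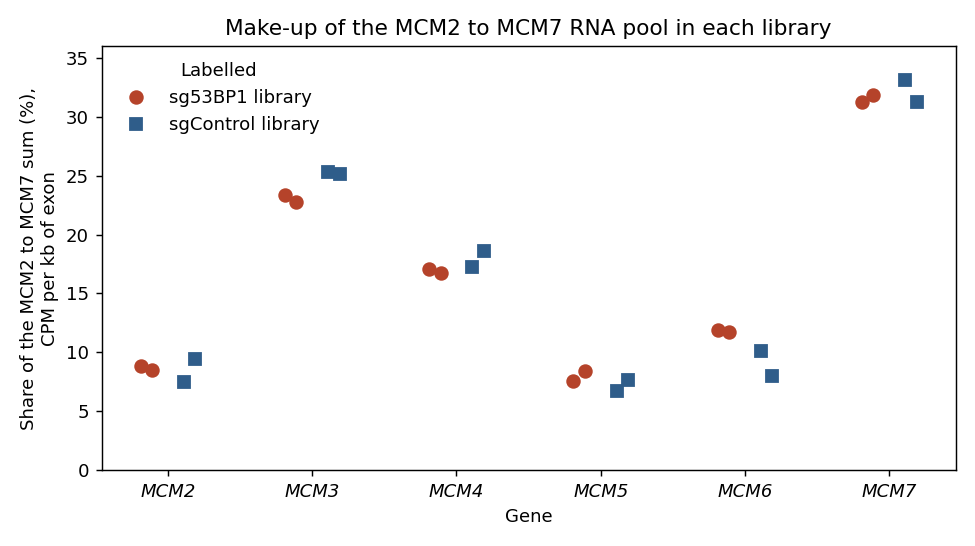
Share of each ring subunit in the summed level of MCM2 to MCM7 (CPM per kb of exon), in percent, with 1 point per library. MCM6 has the larger share in the libraries labelled sg53BP1 (circles) and MCM3 in those labelled sgControl (squares), while MCM7 holds close to a constant share, between 31.2% and 33.1%.

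Of 40 genes that load or activate the ring or work beside it, 7 (17.5%) were called higher and none lower, beside 6 of the 9 MCM genes. Of the 40, 37 had a positive log2 fold change, and their median was 0.41. The lists were chosen with earlier results of these data known. Of 9 licensing genes, 8 had a positive value, and CDC6, the ATPase that loads MCM rings with ORC, was the only one called higher. CDC6 rose 1.74-fold, with 137 and 133 CPM in the libraries labelled sg53BP1, against 82.5 and 71.9 CPM in those labelled sgControl (adjusted p = 0.00921). CDT1 and its inhibitor GMNN both had log2 fold changes of 0.42 without passing (adjusted p = 0.179 and 0.135), and none of the ORC genes passed. ORC1 had a log2 fold change of 0.51 (adjusted p = 0.104), ORC2 of 0.34 and ORC5 of 0.31, while ORC3, ORC4 and ORC6 had values between −0.10 and 0.04. Of 16 activation genes 3 were called higher. GINS2 rose 1.96-fold (adjusted p = 0.00964), CDC45 1.67-fold (adjusted p = 0.0180) and CDK2 1.56-fold (adjusted p = 0.0373). The other GINS subunits did not pass, with log2 fold changes of 0.40 for GINS1, 0.14 for GINS3 and −0.02 for GINS4.

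Of 15 genes whose products work beside the helicase at the fork or unload it, 3 were called higher. All 15 had values above 0, and their median log2 fold change was 0.50. POLE, the catalytic subunit of the leading-strand polymerase, rose to 191 and 191 CPM in the libraries labelled sg53BP1, against 123 and 122 CPM in those labelled sgControl (1.56-fold, adjusted p = 0.0181). The checkpoint mediator CLSPN rose 1.54-fold (adjusted p = 0.0367) and TIPIN, which travels with the fork, 1.61-fold (adjusted p = 0.0475; 0.0527 with limma-voom). LRR1 and CUL2, parts of the ligase that marks MCM7 for removal, did not pass, with log2 fold changes of 0.26 and 0.01.

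Regulators of MCM transcription had log2 fold changes of either sign. Of 18 genes of the E2F, RB and DREAM group, 11 had a positive value, 2 were called higher and 1 lower, with a median log2 fold change of 0.11. The activator E2F1 stood at 48.1 and 46.5 CPM in the libraries labelled sg53BP1, against 33.7 and 25.1 CPM in those labelled sgControl, and rose 1.61-fold (adjusted p = 0.0497). The activator E2F2 had a log2 fold change of 1.34 at low levels and did not pass (adjusted p = 0.0643), and E2F3 had −0.07. MYBL2, which works with the same complexes later in the cycle, rose 2.57-fold (adjusted p = 0.00194). E2F7, a repressor of E2F targets, fell to 165 and 149 CPM in the libraries labelled sg53BP1, against 238 and 260.4 CPM in those labelled sgControl, 1.59-fold lower (adjusted p = 0.0204). E2F8, the repressor most like E2F7, had the opposite sign with a log2 fold change of 1.38 at low levels and did not pass (adjusted p = 0.0526). The pocket-protein genes RB1, RBL1 and RBL2 had log2 fold changes of 0.33, 0.32 and −0.32 and did not pass.

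Of 12 genes of G2 and mitosis, 11 had a positive value, but only MKI67 was called higher, at 1.47-fold (adjusted p = 0.0382). The median log2 fold change of the list was 0.24. CDC20 had a log2 fold change of 0.56, as large as that of MKI67, without passing (adjusted p = 0.184). TOP2A and CDK1 each had 0.31, and CCNA2, CCNB1 and CCNB2 had 0.17, 0.19 and −0.00025. None of 6 tested CDK inhibitor genes passed. CDKN1A, which encodes p21, stood at 549 and 554 CPM in the libraries labelled sg53BP1, against 424 and 762 CPM in those labelled sgControl, so the sgControl libraries lay on either side of the others. A difference between the MCM genes and these lists was not tested. The called genes of the licensing, activation, fork, regulator and mitosis lists lost their calls when either library labelled sg53BP1 was left out, as did nearly every called gene of the table.

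**Figure D5:**
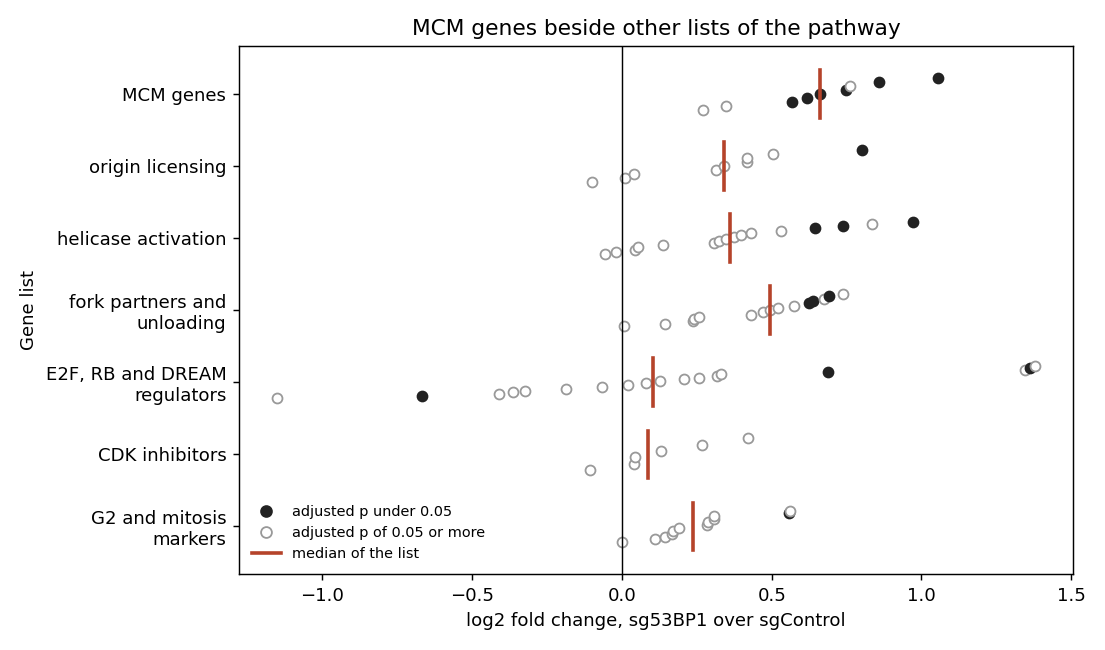
Log2 fold change, sg53BP1 over sgControl, of each tested gene of the MCM set and of 6 other lists, with filled points for an adjusted p under 0.05 and a bar at each list's median. The MCM genes have the highest median, 0.66, followed by the fork partners at 0.50; the regulators spread on both sides of 0.

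The genes whose profile over the 4 libraries lay nearest to the mean of MCM2 to MCM7 included a loader and an activator of the ring. Likeness was the Euclidean distance between centred log2 CPM values, which is set mostly by the gap between the groups and is a description over 4 libraries. CDC6 was nearest with a distance of 0.050 and CDC45 second with 0.058. ATAD2, a chromatin ATPase, followed at 0.072 with 214 and 197 CPM in the libraries labelled sg53BP1, against 131 and 117 CPM in those labelled sgControl. Then came IL1RAPL1, PCLAF, AP1M2, TUBA4A and PEG10, at distances of 0.073 to 0.085. PCLAF is a partner of the sliding clamp PCNA. The MCM genes themselves lay at 0.12 (MCM7) to 0.50 (MCM8) from the same mean, with MCM6 at 0.42 and MCMBP at 0.49.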

How the data were processed

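The submitters' processing notes name HISAT2 (2.1.0), Bowtie2 (2.2.3), HTSeq (0.6.0) and build hg19, without roles; the sources used here do not give the annotation or how strand was counted. The authors deposited 1 table of raw counts per gene and library. It also holds the authors' deposited comparison: a mean level (a signal), log2 fold changes and their errors in log2 units, a test statistic (a score) for each gene, and p-values.

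Of 20050 rows, 397 repeats of an identifier with identical counts were removed. Count columns were matched through the samples' descriptions. Groups were compared with edgeR 4.0.16 in R 4.3.3 (filterByExpr, TMM, robust quasi-likelihood F test, Benjamini-Hochberg over all tested genes). The procedure was tried on counts simulated with less spread between libraries than these data had. That trial therefore does not vouch for the calls. Standard errors come from the F statistic. Alternatives used DESeq2 1.42.0 and limma 3.58.1, other filters and scalings, a replicate block and each library left out. The 9 genes and all lists were chosen with earlier results of these data known. Named genes were TP53BP1, the 9 genes, each list's called genes, up to 4, by lowest adjusted p, and the 8 nearest profiles; other genes were named after their values were seen. GENCODE release 29, on another build than the counts, gave lengths and overlaps only. Promoter windows are from RefSeq.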

Additional observations from a re-analysis of the deposited data

How the results depend on the processing

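All 9 MCM genes kept a positive log2 fold change under all 11 alternatives. The groups did not overlap for any of these genes, so these alternatives could hardly turn a sign, and the kept signs say little. MCM2 to MCM7 kept their calls with DESeq2 size factors, library totals, both other filters, the DESeq2 Wald test and limma-voom. The count of genes past the threshold was 1548 without the low-count filter, 297 with the replicate number as a block and 368 when a log2 fold change of 1 or more in either direction was also required, beside 667. For the MCM genes the count was 3 with the replicate block (MCM2, MCM5 and MCM6) and 1 at that fold change (MCM6), beside 6. For the other 40 replication genes it was 14 without the filter and 1 (CDC6) with the block, beside 7. Deviations of same-numbered libraries correlated at 0.03 across genes, so the numbers were not taken as pairs. Leaving out 1 library in turn gave 5 to 3358 genes, 0 to 9 MCM genes, 0 to 23 other replication genes and a median MCM log2 fold change of 0.53 to 0.73; the lowest calls came with a library labelled sg53BP1 left out, when the spread came from the sgControl pair and the lone library was assumed to vary like it. RefSeq protein lengths were not used. With 2 libraries a group the spread is estimated from few values, and counting depth was not compared with it.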

Other observations

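MCM9, the partner of MCM8 in recombination, stood at 8.46 and 7.83 CPM in the libraries labelled sg53BP1, against 8.13 and 9.27 CPM in those labelled sgControl, and did not pass (log2 fold change −0.10, adjusted p = 0.874). HROB, which loads the pair, had a log2 fold change of 0.19 (adjusted p = 0.669). PRKDC, which encodes the catalytic subunit of the end-joining kinase DNA-PK and starts back to back with MCM4 in GENCODE release 29, with 1 base between the annotated starts, stood at 751 and 639 CPM in the libraries labelled sg53BP1, against 556 and 474 CPM in those labelled sgControl. Its log2 fold change was 0.43, beside 0.62 for MCM4, and it did not pass (adjusted p = 0.133). MCM3AP, whose product acetylates MCM3, had a log2 fold change of 0.23 (adjusted p = 0.353). MCM7 hosts the microRNA genes MIR106B, MIR93 and MIR25 in its introns. MIR25 had 29 and 16 counts in the libraries labelled sg53BP1 and 9 and 15 in those labelled sgControl, and each of the others had at most 1 count in a library, so that mature microRNAs could not be followed here. PRKDC, MCM3AP and the microRNA genes were chosen after their values were seen.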
